A study of Mus musculus with 22 samples.

Results

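The immediate early genes examined here are 10 listed genes whose transcripts appear within minutes of a stimulus: Fos, Fosb, Jun, Junb, Egr1, Atf3, Ier2, Ier3, Dusp1 and Zfp36. They were found by their symbols in the deposited tables, and 9 of the 10 were found among 16556 genes. Fosb was not analysed here. All 9 passed the filter on low counts and were tested among 15064 genes.

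The study sequenced 3′ tags of polyadenylated RNA from 22 male C57BL/6J mice, taking cortex of the kidney. The study removed carnitine acetyltransferase (Crat), which converts acetyl-coenzyme A and carnitine to acetylcarnitine, by Cre/lox recombination in the proximal tubule, where the Ggt promoter drives Cre. Mice carrying this deletion are labelled Pt-CrAT, and their floxed counterparts without Cre are labelled fl/fl, so both genotypes carry floxed Crat. The groups were 3 fl/fl and 3 Pt-CrAT mice at 12 months (title word LFD), 3 of each genotype at 15 months (title word chow) and 5 of each at 24 months (chow). The labels leave LFD unexplained, and age changes with the diet word, so levels at 12 months were not tested against those at the later ages. Libraries are named as their titles are, with Wt for fl/fl and CrAT for Pt-CrAT, then the age, the diet word and the number of the animal. The cortex holds many cell types of the nephron, vessels and immune system, whereas the deletion is directed at 1 of them.

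Library totals lay between 12175804 and 17447367 counts, except for library CrAT12MLFD345 at 12 months with 53157575. Markers of the cortex were high in every group: 10 proximal tubule markers summed to between 8461 and 20230 CPM (the counts of a gene scaled to a common library total). The targeted gene, Crat, did not separate the genotypes in every setting. At 12 months its level was 78.9 ± 22.5 CPM in fl/fl and 62.5 ± 19.4 in Pt-CrAT (SD, n = 3 each), and at 24 months 74.7 ± 24.4 and 36.2 ± 4.41 CPM (SD, n = 5 each). At 15 months it went against the labels, at 45.3 ± 13.3 CPM in fl/fl and 69.1 ± 5.27 in the libraries labelled Pt-CrAT (SD, n = 3 each), with no overlap. The sources used here do not say whether the 3′ tags lie in the deleted part. Directions at 15 months are therefore given by label.

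Immediate early genes need no new protein to be switched on. Kinase cascades such as the MAP kinase pathway act on factors already bound at their promoters, among them serum response factor at CArG boxes and CREB at cAMP response elements, and transcription starts at once. Fos and Jun family proteins pair to form AP-1, Egr1 and Atf3 are further transcription factors, and Dusp1 and Zfp36 shut the response down, by dephosphorylating MAP kinases and by binding AU-rich messenger RNAs for decay. Their transcripts are short-lived, and in kidney they are known to climb with ischaemia, with tissue handling and with delay before freezing.

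The promoters of the 3 members that differed between genotypes at 12 months (Junb, Dusp1 and Ier3), and of Zfp36, are shown to give the sequence on which such factors would act. They come from RefSeq, build GRCm38.p6, are written 5′ to 3′ on the strand of the gene, start 150 bases before the RefSeq start site and stop before that site or before any GENCODE M21 transcript start inside the window. Capitals mark a match to a searched motif. Junb, Dusp1 and Zfp36 lie on the minus strand and Ier3 on the plus strand.
Junb, chr8:84978749-84978898: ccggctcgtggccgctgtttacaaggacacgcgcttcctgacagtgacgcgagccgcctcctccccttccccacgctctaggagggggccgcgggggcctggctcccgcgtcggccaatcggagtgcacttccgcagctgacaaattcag
Dusp1, chr17:26508520-26508622: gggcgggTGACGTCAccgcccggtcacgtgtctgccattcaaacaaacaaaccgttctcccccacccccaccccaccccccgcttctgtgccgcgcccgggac
Ier3, chr17:35821563-35821683: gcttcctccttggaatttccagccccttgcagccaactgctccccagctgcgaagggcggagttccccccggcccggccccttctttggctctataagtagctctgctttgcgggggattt
Zfp36, chr7:28379256-28379378: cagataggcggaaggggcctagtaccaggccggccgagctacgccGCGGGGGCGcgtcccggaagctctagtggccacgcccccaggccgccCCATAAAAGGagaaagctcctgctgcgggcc

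The search covered both strands of windows of 300 bases (250 before to 50 after the start) for 8 of the 10 listed members, which had a window in the table. Egr1 and Ier2 had none. Only full matches to the motifs were counted, so near matches and sites outside the windows would be missed. The cAMP response element TGACGTCA, whose letters read the same on both strands, stood in Dusp1, beginning at -143 from the start. It was in 1.79% of all 32851 windows of that length. The CArG box stood in Zfp36, at -58 to -49, and in 1.63% of all windows. The EGR element GCGGGGGCG stood in Zfp36, at -105 to -97, and in the window of Fosb, and in 2.91% of all windows. The AP-1 element TGANTCA was in no member's window and in 7.81% of all windows. TATAAA stood in Fos, at -33 to -28, and in Junb just after the RefSeq start, at 1 to 6, and in 13.6% of all windows. The nearest GENCODE M21 start of Junb lies 30 bases downstream of the RefSeq start, so this match stands before the GENCODE start. No match overlapped another, and the windows of Junb before the RefSeq start and of Ier3 held no match.

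At 12 months Junb and Dusp1 were lower and Ier3 was higher in Pt-CrAT, and the other 6 members did not pass. All values below are CPM scaled by the trimmed mean of M values (TMM), and fold changes and adjusted p-values come from edgeR's quasi-likelihood test with Benjamini-Hochberg adjustment over all genes tested. The 3 calls among 9 members stand beside 16.4% of all genes called in this comparison, 8.41% higher and 7.95% lower. Each of the 3 was also without overlap between genotypes, as were 30.1% of all genes. In bulk cortex, fewer cells of a type and less RNA per cell cannot be told apart.

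Junb (ENSMUSG00000052837; GRCm38 chromosome 8, 84974484 to 84978718) encodes an AP-1 subunit that often restrains Jun. It stood at 46.3, 15.4 and 22.5 CPM in libraries Wt12MLFD326, Wt12MLFD327 and Wt12MLFD368, and at 9.31, 8.22 and 15.0 CPM in libraries CrAT12MLFD328, CrAT12MLFD337 and CrAT12MLFD345. All 3 Pt-CrAT libraries lay below all 3 fl/fl libraries, but Wt12MLFD326 stood far above its companions, and Wt12MLFD327 and CrAT12MLFD345 lay next to each other. The log2 fold change was -1.34 (SE 0.35, adjusted p = 0.0173, edgeR).

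Dusp1 (ENSMUSG00000024190; chromosome 17, 26505590 to 26562128), the phosphatase that ends MAP kinase signalling, stood at 68.6, 29.2 and 31.7 CPM in libraries Wt12MLFD326, Wt12MLFD327 and Wt12MLFD368. In libraries CrAT12MLFD328, CrAT12MLFD337 and CrAT12MLFD345 it stood at 13.5, 14.2 and 27.2 CPM. The groups did not overlap, Wt12MLFD326 again stood apart at the top, and CrAT12MLFD345 lay close under the fl/fl libraries. Dusp1 had a log2 fold change of -1.21 (SE 0.36, adjusted p = 0.0302, edgeR).

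Ier3 (ENSMUSG00000003541; chromosome 17, 35821684 to 35822923), a small protein that modulates survival and MAP kinase signalling, went the other way. It stood at 92.8, 162 and 170 CPM in libraries Wt12MLFD326, Wt12MLFD327 and Wt12MLFD368 and at 273, 285 and 183.2 CPM in libraries CrAT12MLFD328, CrAT12MLFD337 and CrAT12MLFD345. The lowest Pt-CrAT library, CrAT12MLFD345, lay just above the highest fl/fl library, and Wt12MLFD326 was the lowest of the 6. Ier3 had a log2 fold change of 0.80 (SE 0.26, adjusted p = 0.0383, edgeR).

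**Figure D1:**
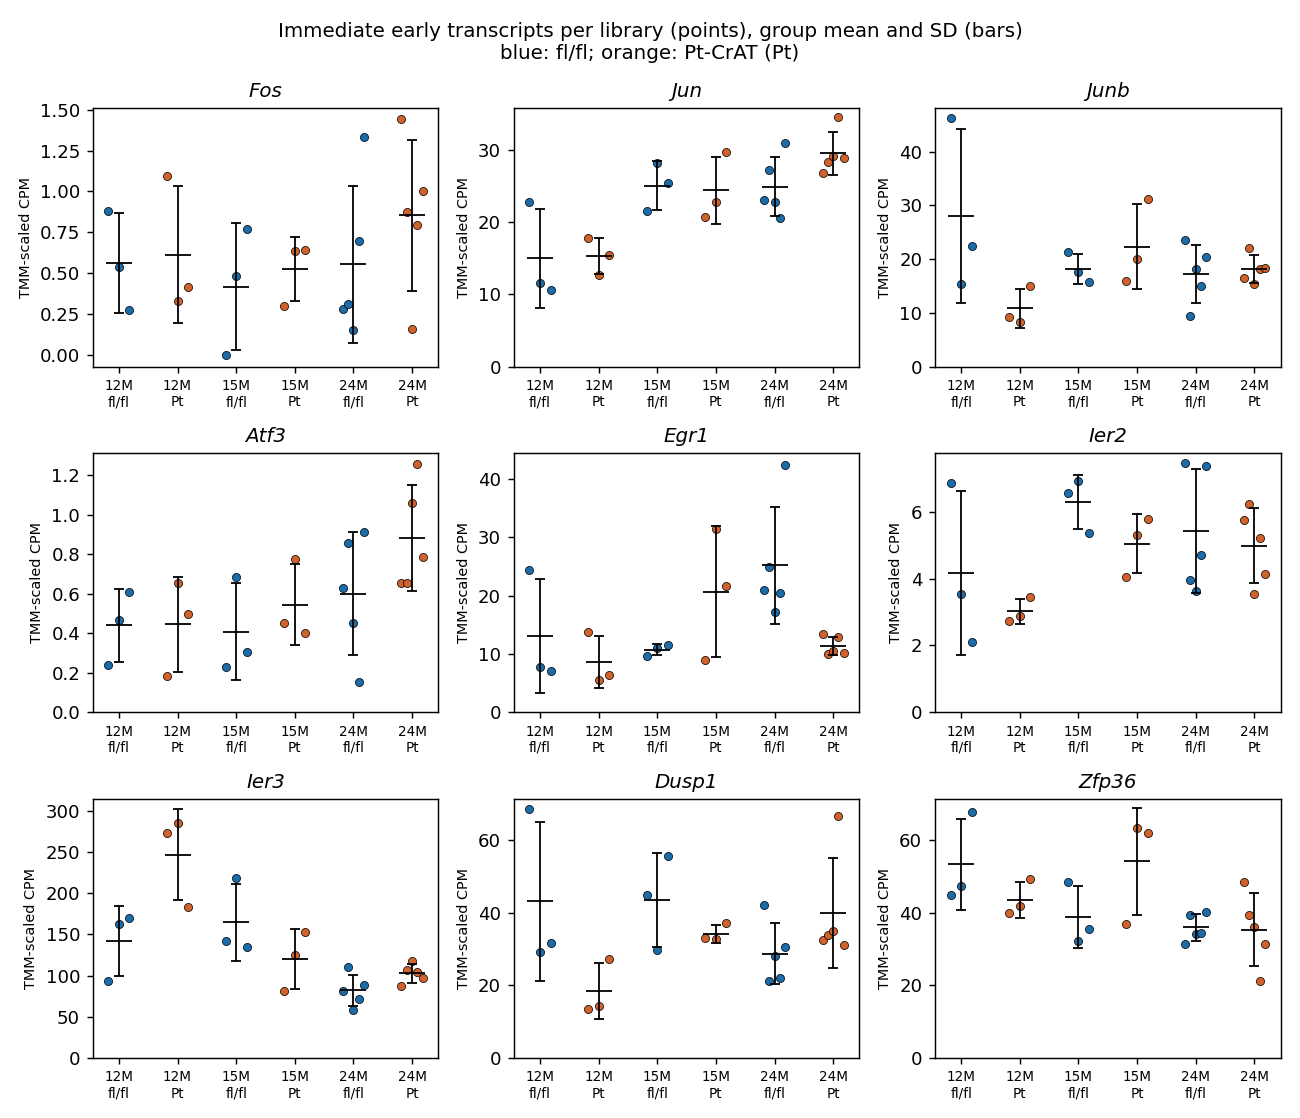
TMM-scaled CPM of the 9 members in each library (points; blue fl/fl, orange Pt-CrAT), with the group mean and SD (bars), by age in months on the horizontal axis. Junb and Dusp1 were lower in all 3 Pt-CrAT libraries at 12 months, where 1 fl/fl library stood at 46.3 and 68.6 CPM, and Egr1 was lower in all 5 Pt-CrAT libraries at 24 months.

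Each of these 3 calls was lost when any 1 of 3 particular libraries was left out. Without library Wt12MLFD326 Junb stood at -0.77 (adjusted p = 0.169), Dusp1 at -0.70 (0.268) and Ier3 at 0.57 (0.22). Without library CrAT12MLFD328 they stood at -1.23 (adjusted p = 0.11), -1.02 (0.16) and 0.73 (0.157). Without library CrAT12MLFD337 they stood at -1.17 (adjusted p = 0.0903), -1.04 (0.135) and 0.69 (0.152). All 3 genes kept their direction in each of the 6 fits with 1 library left out, and lost the call in the same 3 of them. The number of all genes called moved alongside, from 2464 to 408 without Wt12MLFD326, 53 without CrAT12MLFD328 and 391 without CrAT12MLFD337. When edgeR was given the 6 libraries at 12 months alone, none of the 3 passed (adjusted p = 0.158 for Junb, 0.158 for Dusp1 and 0.16 for Ier3), and 1 gene in the table did.

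**Figure D2:**
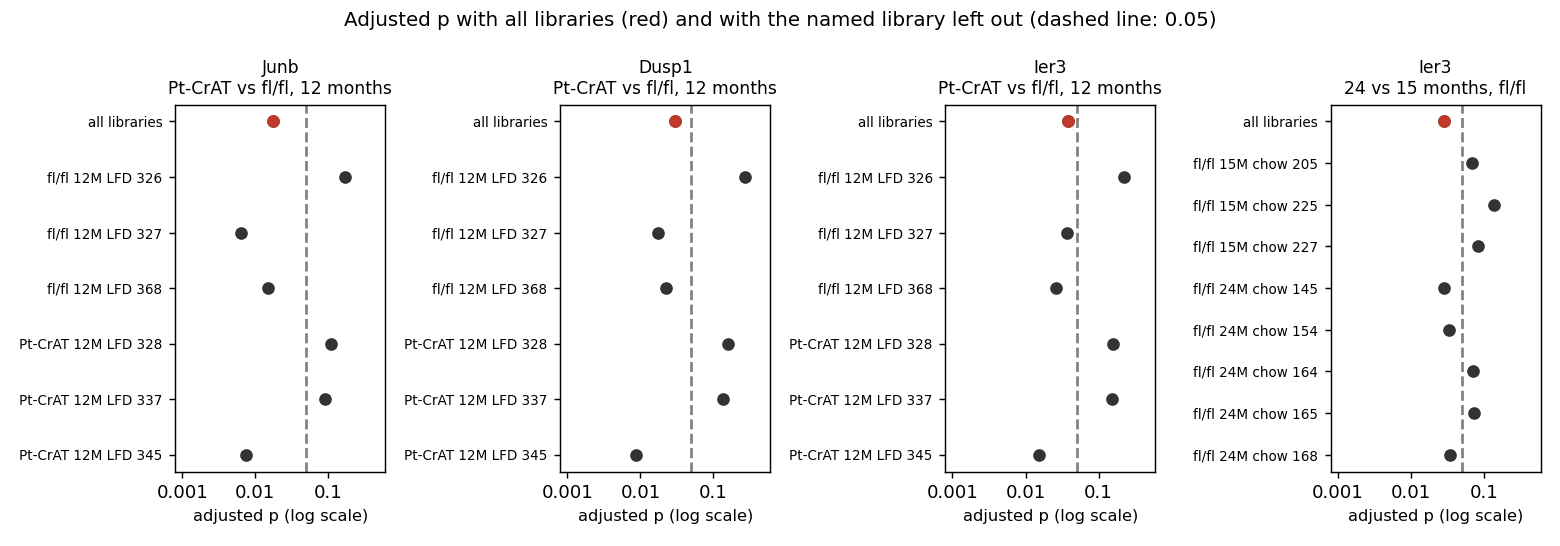
Adjusted p (edgeR, log axis) of the 4 member calls with all libraries (red) and with each library of the compared groups left out (black); the dashed line is 0.05. The 12-month calls of Junb, Dusp1 and Ier3 crossed the line without library Wt12MLFD326, library CrAT12MLFD328 or library CrAT12MLFD337, and the age call of Ier3 crossed it in 5 of 8 fits.

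The other members did not pass at 12 months. Egr1, the zinc finger factor, stood at 24.3, 7.75 and 6.99 CPM in fl/fl and at 13.7, 5.50 and 6.46 CPM in Pt-CrAT, with overlap and a log2 fold change of -0.62 (SE 0.47, adjusted p = 0.367, edgeR). Jun, the AP-1 subunit that gives the family its name, stood at 15.0 ± 6.80 CPM in fl/fl and 15.3 ± 2.54 in Pt-CrAT (SD, n = 3 each). Ier2, a nuclear regulator of early response genes, stood at 4.17 ± 2.45 and 3.02 ± 0.375 CPM, and Zfp36 at 53.3 ± 12.7 and 43.6 ± 4.97 CPM. In all 3 of Egr1, Jun and Ier2 the highest fl/fl value was that of library Wt12MLFD326. The median log2 fold change over the 9 members was -0.29, beside 0.00 over all genes, and the median size without sign was 0.43 beside 0.37.

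Fos and Atf3 lay near the floor of the assay throughout. Fos, the founding AP-1 subunit, had 0 to 22 reads and at most 1.44 CPM in any library, and Atf3, a stress-induced repressor and activator, had 2 to 24 reads and at most 1.26 CPM. The library with 0 reads of Fos was Wt15Mchow205. Group means ran from 0.416 to 0.854 CPM for Fos and from 0.408 to 0.883 CPM for Atf3, and neither gene was called in any comparison. The 95% interval of the Fos log2 fold change at 12 months ran from -1.65 to 1.71 and that of Atf3 from -1.12 to 1.21.

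The lists of genes around the members are read beside the 16.4% of all genes called at 12 months, 8.41% higher and 7.95% lower. An unadjusted p under 0.05 was found in edgeR for 33.7% of all genes. Of 23 early feedback regulators tested 3 fell: the stress phosphatase subunit Ppp1r15a (log2 fold change -1.66), the NF-κB inhibitor Nfkbia (-0.60) and Ier5l (-0.91). Among 9 early effectors the small GTPase Rhob fell (-0.96, SE 0.21, adjusted p = 0.00795, edgeR). Of 22 upstream kinases and factors 2 rose, among them Hras (0.76), and 3 fell, among them the kinase Rps6ka3 (-1.13). None of 10 other AP-1 genes, 12 other early transcription factors and 14 clock genes passed in edgeR, where 3, 3 and 2 of them had an unadjusted p under 0.05, and DESeq2 called 1, 2 and 2. Of 9 heat shock genes, Dnajb1 (0.91) and Hsp90aa1 (1.07) rose. Without Wt12MLFD326 every gene named in this paragraph lost its call except Rhob, and without CrAT12MLFD328 all of them did.

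Adipocyte markers moved with the same groups. Of 7 tested, 6 rose in Pt-CrAT at 12 months, and the 8 markers summed to 133 to 275 CPM in fl/fl and 353 to 881 CPM in Pt-CrAT, with none at 0 in all libraries of a group. The lowest of these sums, 133 CPM, was that of library Wt12MLFD326. Sums of 3 other marker lists did not overlap between genotypes either. Proximal tubule markers summed to 13584 to 16695 CPM in fl/fl and 17072 to 20230 CPM in Pt-CrAT, with 2 of 10 called, 1 in each direction. Collecting duct markers summed to 483 to 570.4 CPM and 580.2 to 659 CPM, with 1 of 6 called, lower, and podocyte markers to 257 to 320.1 CPM and 182 to 249.5 CPM, with 0 of 4 called in edgeR and 1 at an unadjusted p under 0.05. None of these markers was at 0 in all libraries of a group. In lists whose sums overlapped, endothelial Cdh5 (-1.28), smooth muscle and fibroblast marker Pdgfrb (-1.15) and thick limb marker Kcnj1 (-0.85) were called lower. No marker of those lists was called higher. The part of these cell types in the differences of Junb, Dusp1 and Ier3 was not tested.

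At 15 months no member passed the test. Of 9 members 0 were called, beside 0% of all genes, and 0 members and 1249 genes (8.29%) had an unadjusted p under 0.05 in edgeR. DESeq2 also called 0 of 9 members and 0 genes. The labels overlapped in all 9 members, whereas 24.3% of all genes were without overlap. Zfp36, the messenger RNA decay factor, stood at 48.5, 32.2 and 35.5 CPM in libraries Wt15Mchow205, Wt15Mchow225 and Wt15Mchow227 and at 37.0, 63.4 and 62.0 CPM in libraries CrAT15Mchow183, CrAT15Mchow185 and CrAT15Mchow204. Egr1 stood at 9.71, 10.99 and 11.5 CPM in fl/fl and at 8.96, 31.4 and 21.6 CPM in the libraries labelled Pt-CrAT. In both genes library CrAT15Mchow183 lay within or below the fl/fl range while its companions CrAT15Mchow185 and CrAT15Mchow204 lay above it, so the labels overlapped. The log2 fold changes were 0.48 for Zfp36 (SE 0.24, adjusted p = 0.581, edgeR) and 0.94 for Egr1 (SE 0.46, adjusted p = 0.581, edgeR).

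The remaining members at 15 months had log2 fold changes between -0.46 for Ier3 and 0.40 for Atf3, with Fos at 0.33, Junb at 0.29, Jun at -0.04, Ier2 at -0.32 and Dusp1 at -0.34. No list around the members had a called gene in edgeR or DESeq2. An unadjusted p under 0.05 was found for 1 of 10 other AP-1 genes, 2 of 12 other early transcription factors, 2 of 23 feedback regulators, 4 of 9 effectors and 3 of 22 upstream genes, beside 8.29% of all genes. The smallest p-values in the 5 lists of signalling and early response genes were those of serum response factor itself, Srf (-0.78), of Ier5 (-0.44) and of the small Maf factor Maff (1.02), each at an adjusted p of 0.581.

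At 24 months Egr1 was the only member whose genotypes did not overlap, and no member passed the test. Egr1 (ENSMUSG00000038418) stood at 21.03, 25.0, 17.1, 20.4 and 42.5 CPM in libraries Wt24Mchow145, Wt24Mchow154, Wt24Mchow164, Wt24Mchow165 and Wt24Mchow168. It stood at 13.4, 10.03, 10.5, 12.8 and 10.2 CPM in libraries CrAT24Mchow123, CrAT24Mchow124, CrAT24Mchow135, CrAT24Mchow136 and CrAT24Mchow146. All 5 Pt-CrAT libraries lay in a narrow band below the lowest fl/fl library, and Wt24Mchow168 stood well above the rest. That pattern, 1 of 9 members, was shared by 1.53% of all genes in either direction and 0.797% in this direction. The log2 fold change was -1.15 (SE 0.35, unadjusted p = 0.00401, adjusted p = 0.461, edgeR). Without Wt24Mchow168 it was -0.87 (adjusted p = 0.612). Proximal tubule markers summed to 12174 to 13365 CPM in fl/fl and 8461 to 12188 CPM in Pt-CrAT, none at 0 in all libraries of a group, and their part in the values of Egr1 was not tested.

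In edgeR with all libraries, calls at 24 months were absent across the table. Of 9 members 0 were called in edgeR, beside 0% of all genes, and 1 member and 1409 genes (9.35%) had an unadjusted p under 0.05. DESeq2 called 6 genes, and its own filter left no member with an adjusted p. Dusp1 stood at 42.1, 21.2, 28.1, 21.9 and 30.4 CPM in fl/fl and at 32.5, 34.0, 35.0, 66.9 and 31.1 CPM in Pt-CrAT, where library CrAT24Mchow136 alone lay far from the others. The groups overlapped through Wt24Mchow145, and the log2 fold change of 0.47 (SE 0.28) became 0.20 without CrAT24Mchow136.

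The remaining members were not called either. Junb stood at 17.3 ± 5.40 CPM in fl/fl and 18.1 ± 2.58 in Pt-CrAT, and Zfp36 at 35.9 ± 3.68 and 35.3 ± 10.1 CPM (SD, n = 5 each). The 95% intervals of these differences ran from -0.49 to 0.61 for Junb and from -0.41 to 0.36 for Zfp36 on the log2 scale. Jun stood at 24.9 ± 4.13 and 29.5 ± 2.94 CPM, Ier3 at 81.9 ± 19.2 and 103 ± 11.5, and Ier2 at 5.43 ± 1.87 and 4.99 ± 1.12 (SD, n = 5 each), all with overlap. Fos stood at 0.554 ± 0.482 and 0.854 ± 0.462 CPM and Atf3 at 0.601 ± 0.31 and 0.883 ± 0.267 CPM, on 2 to 22 reads in each library. The median over the 9 members was 0.24 beside 0.02 over all genes.

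Around the members, no gene of any list passed in edgeR at 24 months. An unadjusted p under 0.05 was found for 1 of 10 other AP-1 genes, 5 of 12 other early transcription factors, 4 of 23 feedback regulators, 3 of 9 effectors and 0 of 22 upstream genes, beside 9.35% of all genes. The smallest p-values in the 5 lists were those of the shear-stress factor Klf2 (21.9 ± 1.90 CPM for fl/fl against 36.8 ± 7.57 CPM for Pt-CrAT, SD, n = 5 each, a log2 difference of 0.75, adjusted p = 0.0771, edgeR), the clock gene Per1 (1.21, adjusted p = 0.129) and the receptor kinase inhibitor Spry4 (1.96, adjusted p = 0.352). DESeq2 gave these 3 genes no adjusted p.

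**Figure D3:**
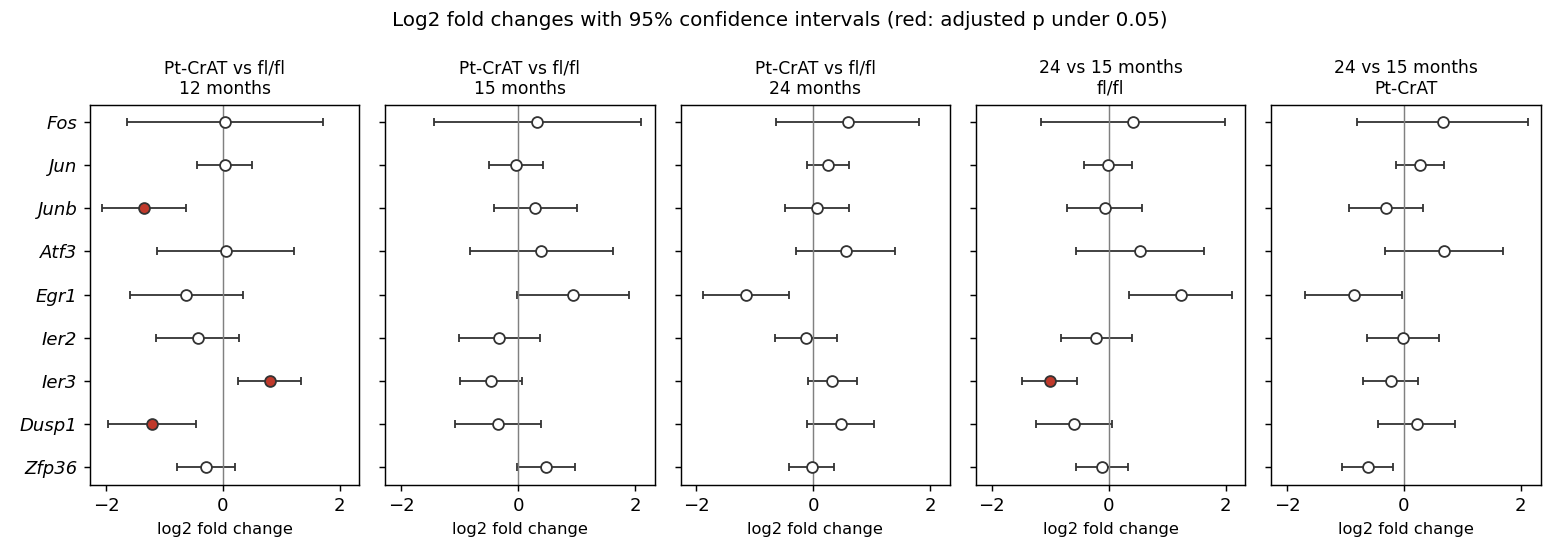
Log2 fold changes of the 9 members (points) with 95% confidence intervals (bars) from edgeR in the 5 comparisons; red marks an adjusted p under 0.05. Junb and Dusp1 at -1.34 and -1.21 and Ier3 at 0.80 were called at 12 months, Ier3 at -1.01 between 15 and 24 months in fl/fl, and every other interval belongs to a difference that was not called.

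Whether the genotype difference itself changed with the setting, age and diet word together, was tested directly. Over the 3 settings, with 2 degrees of freedom, 0 of 9 members passed in edgeR, beside 5.07% of all genes, and 4 members had an unadjusted p under 0.05, beside 29.6% of all genes: Junb (adjusted p = 0.0597), Dusp1 (0.0603), Egr1 (0.0677) and Ier3 (0.0713). DESeq2 called these 4, of 7 members to which it gave an adjusted p (0.0139, 0.0114, 0.0124 and 0.0286 in this order). The edgeR values lay just above the threshold, and with 1 library left out edgeR called 0 to 4 members. For Egr1 the genotype difference went from 0.94 at 15 months, by label, to -1.15 at 24 months, a change of -2.09 (SE 0.58, unadjusted p = 0.00177, adjusted p = 0.29, edgeR). In that comparison 0 of 9 members and 0% of all genes were called, and 2 members and 2255 genes (15%) had an unadjusted p under 0.05. DESeq2 called 0 members and 15 genes. Crat, by the same labels, was called over the 3 settings (adjusted p = 0.0319, edgeR). Its change from 15 to 24 months was not called (-1.65, SE 0.35, adjusted p = 0.266, edgeR).

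The age comparisons take the 15-month groups by label, where Crat went against the labels. In fl/fl, Crat itself had a log2 fold change of 0.72 between 15 and 24 months (SE 0.25, adjusted p = 0.115, edgeR). Between 15 and 24 months in fl/fl, Ier3 fell. It stood at 142, 219 and 134.7 CPM in libraries Wt15Mchow205, Wt15Mchow225 and Wt15Mchow227 at 15 months and at 81.4, 110, 58.4, 71.9 and 88.0 CPM in libraries Wt24Mchow145, Wt24Mchow154, Wt24Mchow164, Wt24Mchow165 and Wt24Mchow168 at 24 months. All 5 older animals lay below all 3 younger ones. The log2 fold change was -1.01 (SE 0.23, adjusted p = 0.0287, edgeR), and 1 call among 9 members stands beside 1.3% of all genes called and 0.478% called lower. Egr1 also did not overlap, with a higher level at 24 months (1.23, SE 0.42, adjusted p = 0.115, edgeR), and DESeq2 called it (adjusted p = 0.0396). The 2 non-overlapping members stand beside 17% of all genes.

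The call of Ier3 with age was narrow. It was lost without library Wt15Mchow205 (adjusted p = 0.0703), Wt15Mchow225 (0.139), Wt15Mchow227 (0.0826), Wt24Mchow164 (0.0705) or Wt24Mchow165 (0.074), with log2 fold changes from -1.14 to -0.77 over the 8 fits that left out 1 library. All genes called ranged from 3 to 756 over the same fits and stood at 196 with all libraries. Animals of different age may also differ in cohort and day of collection, which cannot be told apart from age here.

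Cell type markers moved with age in fl/fl as well, where 1.3% of all genes were called. Of 9 myeloid markers the neutrophil genes S100a8 and S100a9 rose, and the 9 summed to 252 to 275 CPM at 15 months and 327.5 to 622 CPM at 24 months. Of 10 proximal tubule markers Slc5a2 fell, and the sums were 13879 to 15056 and 12174 to 13365 CPM. The distal marker Calb1 (-1.06, adjusted p = 0.0145, edgeR) fell and the plasma cell marker Mzb1 (1.13, adjusted p = 0.0178, edgeR) rose. The sums of 4 other lists also did not overlap between the ages. Lymphocyte and plasma cell markers summed to 17.8 to 24.9 CPM at 15 months and 26.6 to 68.4 CPM at 24 months, smooth muscle and fibroblast markers to 80.8 to 113 and 125 to 158 CPM, urothelial markers to 11.3 to 13.4 and 13.9 to 53.2 CPM, and podocyte markers to 255 to 292 and 114 to 244 CPM. No marker of these lists was at 0 in all libraries of a group, and their part in the fall of Ier3 was not tested. Of the lists around the members, 1 of 12 other early transcription factors fell, the clock gene Per1 (-1.25, SE 0.27, adjusted p = 0.0238, edgeR), which is also 1 of 3 of 14 clock genes that fell, with Dbp (-1.52) and Per2 (-2.23). Each of these 3 clock calls was lost in at least 4 of the 8 fits that left out 1 library, and that of Per1 also with only the fl/fl groups compared in the fit (adjusted p = 0.0553, edgeR). The daily hour of collection is not in the labels.

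In Pt-CrAT animals no member passed in edgeR between 15 and 24 months, beside 11.3% of all genes. The unadjusted p was under 0.05 for Zfp36 and Egr1 among the members and for 4142 genes (27.5%). Zfp36 stood at 37.0, 63.4 and 62.0 CPM in libraries CrAT15Mchow183, CrAT15Mchow185 and CrAT15Mchow204, labelled Pt-CrAT at 15 months, and at 48.5, 39.5, 35.9, 21.05 and 31.5 CPM in libraries CrAT24Mchow123, CrAT24Mchow124, CrAT24Mchow135, CrAT24Mchow136 and CrAT24Mchow146 at 24 months. The ages overlapped only through library CrAT15Mchow183 in this gene, and in no member were they without overlap, beside 21.8% of all genes. The log2 fold change was -0.62 (SE 0.21, adjusted p = 0.059, edgeR); DESeq2 called it (adjusted p = 0.0448), and so did edgeR without library CrAT15Mchow183 (0.0187) or CrAT24Mchow123 (0.0303). Egr1 had a log2 fold change of -0.86 (SE 0.40, adjusted p = 0.167, edgeR). Crat itself, with the 15-month groups taken by label, was called lower at 24 months (-0.93, SE 0.24, adjusted p = 0.0165, edgeR). The fl/fl and Pt-CrAT age comparisons use different animals, and their difference is the change of the genotype difference given above.

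Some genes of the lists around the members passed in Pt-CrAT, beside 11.3% of all genes called, 5.61% higher and 5.71% lower. Of 12 other early transcription factors 5 rose from 15 to 24 months. The smallest p was that of Klf2, which went from 19.2 ± 1.35 to 36.8 ± 7.57 CPM (SD, n = 3 and 5; log2 fold change 0.93, SE 0.16, adjusted p = 0.00148, edgeR), and it held in all 8 fits that left out 1 library. Klf4 (0.91), Klf6 (0.57), the orphan nuclear receptor Nr4a2 (2.09) and Cebpd (0.92), which was chosen after its values were seen, rose too. Of 23 feedback regulators Ier5 (0.61) and the phosphatase Dusp2 (1.51) rose, of 9 effectors the kinase Sgk1 (0.89) and Arc (2.65), and of 22 upstream genes Creb1 (0.47). All named here but Klf2 lost the call without library CrAT15Mchow185 and also without library CrAT15Mchow204, both labelled Pt-CrAT at 15 months. With only the groups compared in the edgeR fit, Cebpd (adjusted p = 0.071), Sgk1 (0.0992), Arc (0.0726) and Creb1 (0.0633) lost it as well. None of 10 other AP-1 genes was called by edgeR or DESeq2, and 3 had an unadjusted p under 0.05 in edgeR. Arc lay at 0.127 ± 0.156 CPM at 15 months, so its fold rests on few reads.

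In the same comparison 2 heat shock genes rose, Hspa1b (2.12) and its near-identical copy Hspa1a (1.06), whose reads the counting could split, and Hspa8 fell (-0.57). Of 14 clock genes Arntl (2.94) and Clock (0.37) rose and Dbp (-1.22), Tef (-0.69) and Ciart (-1.73) fell. Each of these calls was lost in at least 2 of the 8 fits, and those of Hspa1b (adjusted p = 0.0994), Hspa8 (0.056) and Clock (0.085) also with only the groups compared in the edgeR fit. Urothelial markers were called higher in 4 of 5, with sums of 3.22 to 4.89 CPM at 15 months and 13.4 to 39.1 CPM at 24 months, and proximal tubule markers lower in 5 of 10, with sums of 15266 to 15818 and 8461 to 12188 CPM. Smooth muscle and fibroblast markers were called higher in 3 of 6 (sums of 77.3 to 108 and 151 to 196 CPM), collecting duct markers in 2 of 6 (356 to 590.4 and 646 to 1251 CPM) and myeloid markers in 2 of 9 (269 to 386 and 399.8 to 658 CPM). Adipocyte markers were called lower in 1 of 7 (195 to 274 and 67.1 to 184 CPM). The sums of these 6 lists did not overlap between the ages, and none of their markers was at 0 in all libraries of a group. Their part in the values of Klf2, Zfp36 and the other genes was not tested.

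Across the 6 groups the order of mean levels differed from member to member. It is a description, since age and the diet word cannot be told apart between the 12-month groups and the others. Egr1 was highest in fl/fl at 24 months (25.2 ± 10.05 CPM, SD, n = 5), followed by the group labelled Pt-CrAT at 15 months (20.6 ± 11.3, SD, n = 3), a pair that did not differ beyond its spread. The other 4 groups lay between 8.55 and 13.0 CPM. Junb ran from 10.8 ± 3.62 CPM in Pt-CrAT at 12 months to 28.0 ± 16.2 in fl/fl at 12 months (SD, n = 3 each), with the 4 chow groups between 17.3 and 22.3 CPM and within each other's spread. Ier3 ran from 81.9 ± 19.2 CPM in fl/fl at 24 months (SD, n = 5) to 247 ± 55.6 in Pt-CrAT at 12 months (SD, n = 3), and Pt-CrAT at 15 and at 24 months (120 ± 36.2 and 103 ± 11.5 CPM) overlapped.

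Dusp1 had its lowest mean in Pt-CrAT at 12 months (18.3 ± 7.71 CPM), and fl/fl at 12 and 15 months had nearly equal means (43.2 ± 22.1 and 43.5 ± 13.0 CPM; SD, n = 3 each). Jun stood lowest in the 12-month groups and between 24.3 and 29.5 CPM in the 4 chow groups, Ier2 between 3.02 and 6.30 CPM and Zfp36 between 35.3 and 54.1 CPM over the 6 groups. The lowest and highest library differed 7.72-fold for Egr1, 5.63-fold for Junb, 5.08-fold for Dusp1, 4.88-fold for Ier3, 3.55-fold for Ier2, 3.26-fold for Jun and 3.22-fold for Zfp36.

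Since handling is known to move these genes, the spread between animals of the same group was described. On the scale of log2(CPM + 1), the SD around the group means over 22 libraries was 0.57 for Egr1, above that of 97.9% of all genes tested, 0.45 for Dusp1 (94.9%), 0.44 for Junb (94.3%) and 0.28 for Jun (61.2%). The median over the 9 members was 0.36 beside 0.25 over all genes. Among genes of similar level, within 0.5 on the log2 scale, Egr1 lay above 97.2%, Dusp1 above 94.7% and Junb above 93.7%. The other members lay above 95% (Fos), 87.8% (Ier3), 83.9% (Zfp36), 79.3% (Ier2), 71.2% (Jun) and 31.4% (Atf3). Over all genes, the ranks of Fos and Atf3 were set by the pseudocount. Fos lay above 86.7% of all genes with 1, 98.5% with 0.25 and 17.2% with 5. Atf3 lay above 42.1% with 1, 83.5% with 0.25 and 3.01% with 5. Egr1 lay above 94% of all genes with 0.25 and 98.1% with 5, Dusp1 above 81.3% and 97.1%, and Junb above 81.2% and 95.9%. Among genes of similar level these 2 ranks moved less. There Fos lay above 96.7% with 0.25 and 89.7% with 5, and Atf3 above 38.6% and 27%.

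Some libraries were extreme in many members. Library Wt12MLFD326 at 12 months was the highest of its group in 6 of 9 members and the lowest in the other 3, which include Ier3 and Zfp36. Library Wt24Mchow168 at 24 months was the highest of its 5 in 5 members, among them Egr1 at 42.5 CPM and Fos at 1.34 CPM. Library CrAT15Mchow183, labelled Pt-CrAT at 15 months, was the lowest of its group in 7 of 9 members, and library CrAT15Mchow204 of the same group was the highest in 6. Every group has a highest and a lowest library in each gene. Such counts were not made over all genes, so they are not shown to be particular to these members.

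**Figure D4:**
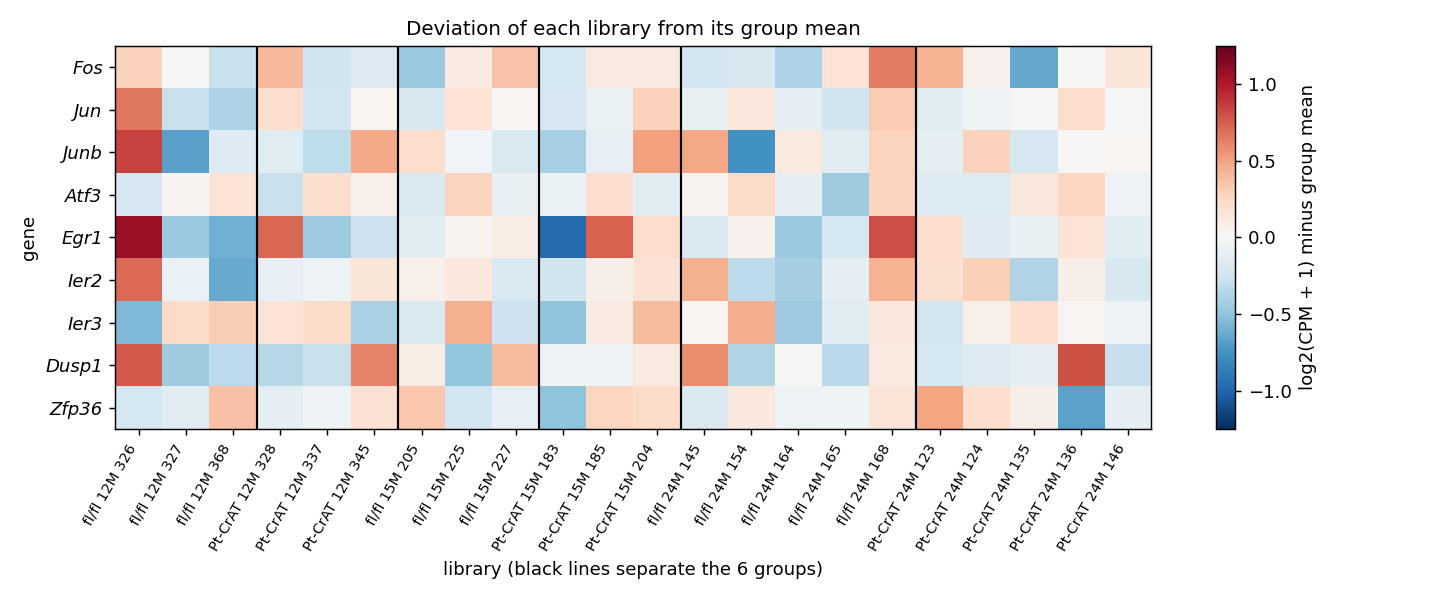
Deviation of each library from its group mean on the scale of log2(CPM + 1), by member (rows) and library (columns, named by genotype, age and animal); red is above and blue below the mean. Library Wt12MLFD326 is red in 6 of 9 rows and library Wt24Mchow168 in all 9, both with Egr1 the farthest above the mean, while Ier3 in library Wt12MLFD326 and Zfp36 in library CrAT24Mchow136 are blue.

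Pairs of members deviated together to different degrees. Over the 22 deviations from group means, Jun and Egr1 had a Pearson correlation of 0.78 (Spearman 0.77), which was 0.63 without libraries Wt12MLFD326 and Wt24Mchow168. Junb and Ier2 had 0.69, Junb and Dusp1 0.66, and Fos and Egr1 0.65. Ier3 and Dusp1 went against each other (-0.51). Without the 12-month libraries that value was -0.20, Junb and Dusp1 had 0.41, Jun and Egr1 0.58, Fos and Egr1 0.58, and Junb and Ier2 0.68. Other pairs rose without these libraries. Jun and Ier3 went from -0.03 to 0.69, Egr1 and Ier3 from 0.06 to 0.53, and Jun and Atf3 from 0.06 to 0.66. Of 36 pairs 23 were positive, with a median of 0.08. These are descriptions over 22 points, in each of which both genes share a library and its depth, and Fos and Atf3 enter with few reads.

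The non-members whose deviations were most like the members' mean standardised deviation over the 22 libraries were Gm28229, 2210408F21Rik, Wdr25, 9630013D21Rik, Rbm10, Bbs1, Gm43359, Rac3, Zfp729a and Gm42798, with correlations of 0.79 to 0.72. Of these 10, 9 were shared with the list at either other pseudocount. None of the other early genes listed around the members was among them. Standardising gave Fos and Atf3, with few reads, the same weight as the other members. Low levels were found for Gm28229 (mean 0.458 CPM), Rac3 (1.07) and Gm42798 (1.19). The 10 were picked as the highest correlations of all non-members tested, so the size of these correlations carries that choice.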

How the data were processed

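The deposited read counts per gene, not normalized by the authors, were the basis of every test. Per the labels' protocols, TRIzol was used to extract RNA, and the library kit was Lexogen QuantSeq 3′ FWD. The submitters' processing notes name GRCm38, DESeq2 1.18.1 and R 3.4.3. Aligner, counter, strand setting and annotation are not given in the sources, so overlapping or near-identical genes are uncertain. The deposited normalized signal (counts divided by 1 size factor per library) gave 13933 gene names, and GENCODE M21 gave 2584 more. The table holds no gene with a total under 66.

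Groups come from genotype, age and the title's diet word. No label gives litter, cage or day, so p-values measure only the spread between these samples. edgeR 4.0.16 (R 4.3.3) was fitted to 22 libraries in 1 model of 6 groups (TMM, filterByExpr, robust quasi-likelihood, 16 residual degrees of freedom, biological coefficient of variation 20.5%), with adjusted p-values over 15064 genes and a threshold of 0.05. No use of molecular identifiers is stated, so reads may not be independent molecules. Intervals come from the spread between animals. Deviations used log2(CPM + 1). The procedure was also run on simulated counts. These had the same spread in every group and no outlying library, so they do not cover calls that rest on single libraries. Alternatives were RLE scaling, DESeq2 1.42.0, no low-count filter, only the groups compared, each library left out, pseudocounts of 0.25 and 5, and 2 sets of left-out libraries chosen after seeing the data. The members and gene lists were chosen with earlier results of these data known. Named from the other lists are up to 4 called genes of smallest p per list and comparison or, where none of 5 lists had a call, the 3 of smallest p; some genes that this rule would name are not reported here. Promoters came from RefSeq.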

Additional observations from a re-analysis of the deposited data

Results flagged for a closer look

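Dusp1 in library CrAT24Mchow136 at 24 months stood at 66.9 CPM, far from the other 4 animals of its group, of which the nearest was at 35.0 CPM. The gap made up 0.891 of the range of the 5 animals, above the 95% critical value of 0.71. It was 1 of 18 combinations of member and 24-month group examined, and chance flags about 1 in 20. Without this animal the genotype difference of Dusp1 at 24 months was 0.20 on the log2 scale instead of 0.47, and neither passed the test.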

How the results depend on the processing

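No paired analysis was possible because no replicate number is shared between the groups compared. With only the groups compared in the fit, edgeR called 0 members and 1 gene at 12 months (3 members and 2464 genes with all groups) and 4 genes at 15 months. DESeq2 called 6 genes at 24 months, 2 members and 731 genes for age in fl/fl, 1 member for age in Pt-CrAT, 15 genes for the change of the genotype difference, and 4 members and 2332 genes over the 3 settings. Without both Wt12MLFD326 and CrAT12MLFD328, chosen after seeing the data, 0 members and 19 genes were called at 12 months, and Fos (-0.061) and Ier2 (0.19) changed sign. Leaving out CrAT24Mchow123 and CrAT24Mchow136 at 24 months, also chosen after seeing the data, left 0 members called, with Egr1 at -1.31 (adjusted p = 0.982, edgeR). The members' median spread was 0.46 with a pseudocount of 0.25 and 0.29 with 5. RLE scaling and no low-count filter moved none of the counts of called members or genes past 1.5 times.

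With each library left out in turn, members called ranged from 0 to 3 and genes from 53 to 3513 at 12 months, from 0 to 1 and 3 to 756 for age in fl/fl, from 0 to 1 and 393 to 1777 for age in Pt-CrAT, and from 0 to 4 and 2 to 2195 over the 3 settings. At 24 months genes ranged from 0 to 2. At 15 months and for the change, 0 members and 0 genes were called throughout. Uncalled differences that changed sign at 12 months were those of Fos (-0.50 to 0.48), Jun (-0.15 to 0.47), Egr1 (-1.08 to 0.18), Atf3 (-0.22 to 0.36) and Ier2 (-0.74 to 0.12). At 15 months they were Fos (-0.23 to 1.05), Jun (-0.22 to 0.063) and Junb (-0.036 to 0.49), and at 24 months Junb (-0.092 to 0.21), Ier2 (-0.24 to 0.024) and Zfp36 (-0.17 to 0.10). For age in fl/fl they were Fos (-0.23 to 1.14), Jun (-0.11 to 0.074), Junb (-0.22 to 0.085) and Zfp36 (-0.24 to 0.085), and in Pt-CrAT Junb (-0.50 to 0.025), Ier2 (-0.16 to 0.10), Ier3 (-0.44 to 0.0026) and Dusp1 (-0.054 to 0.31). For the change they were Fos (-0.47 to 0.91), Junb (-0.43 to 0.10) and Atf3 (-0.44 to 0.52). The cause was not tested. Fos and Atf3 had at most 22 and 24 reads in a library, which limits their precision.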
